A study of Mus musculus with 27 samples.

Results

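The Kruppel-like factors described here are 10 genes (Klf2, Klf3, Klf4, Klf5, Klf6, Klf9, Klf10, Klf11, Klf13 and Klf15) out of 21866 genes tested on the array. They were taken as every probe whose gene name is one of these 10. The scanner files give 9 of the genes under these names, and Klf11 was reached through its accession, because the files call it Tieg3. The genes have 18 probes in all, of 60 bases each. Klf4 and Klf10 have 1 probe, and the other 8 genes have 2. On each of the 27 arrays all 18 probes stood well above background, and none was saturated, so no gene was lost to the filter on dim probes and no level here is a bound.

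RNA was measured in whole uterus of female mice aged 8 weeks whose ovaries had been removed 1 to 2 weeks earlier. The mice were C57BL/6 (B6), C3H/HeJ (C3H) or their first-generation hybrid (F1), and every group, vehicle included, was ovariectomised. Each mouse had one intraperitoneal injection of vehicle, alone or with the ovarian estrogen 17β-estradiol (E2, dose 40.0 µg/kg). The vehicle was saline with ethanol in every group. Uteri were collected 2 h or 24 h later, and no time is given for the vehicle mice. This makes 9 groups of 3 one-colour arrays. Tissue came from 3 animals a group. Which animal an array belongs to is not labelled, and the p-values measure the spread between arrays, which may be technical in part.

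Kruppel-like factors are transcription factors that bind GC-rich and CACCC sequences through zinc fingers at their C-terminal end. Their N-terminal parts differ: some recruit the corepressor CtBP (Klf3), some mainly activate (Klf2, Klf4, Klf5, Klf6), and some recruit the Sin3 corepressor (Klf9, Klf10, Klf11, Klf13). In the uterus, Klf9 is known as a partner of the progesterone receptor, and Klf4, Klf5 and Klf15 are known for roles in the proliferation and differentiation of the epithelium.

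A level below is the log2 processed intensity of a probe minus the array's 75th percentile, so 0 is that percentile and a step of 1 is a doubling. Levels of different probes are not compared. Replicate arrays correlated at r from 0.988 to 0.996 over all genes, and 72.4% to 79.4% of probes were well above background on an array. On 3 arrays over 250 genes lay more than 1 log2 unit from their group mean: 494 on C3H E2 24 h replicate 1, 436 on B6 vehicle replicate 1 and 296 on C3H E2 2 h replicate 1. For the results named below, values without these 3 arrays are given where a call changes. Scaling arrays to their median in place of the 75th percentile moves the median of all genes by up to 0.24 at 24 h and 0.13 at 2 h. The 6 markers each of uterine epithelium, stroma and myometrium were well above background on every array, and the 4 ovary markers had mean levels of -6.05 to -4.97. Epithelial markers rose at 24 h (6, 5 and 5 of 6 called in B6, C3H and F1), while myometrial markers rose in 4, 4 and 6 of 6 (3 in C3H without the 3 arrays). Stromal markers fell at 2 h (5 of 6 in each strain) and split at 24 h (3 higher and 2, 3 and 3 lower). The 2 erythroid markers measured rose at both times in each strain. Leukocyte markers had a mean level of 1.41 on B6 vehicle replicate 1, against 0.11 and 0.07 on the other B6 vehicle arrays. On C3H E2 2 h replicate 1 they stood at 1.67 (0.16 and 0.11 on the others of that group). On C3H E2 24 h replicate 1 they stood at 0.39 (0.33 and 0.22). What part these shifts have in the changes of the Kruppel-like factors was not tested. Since whole uterus was profiled, a change in the share of a cell type and a change in RNA per cell cannot be told apart.

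The probes of Klf2, Klf5 and Klf13 did not move together after E2, and those of Klf9 differed in the vehicle levels of the strains. The brighter probe of each is shown here, since the main values rest on it. Capitals mark the codons of the conserved linker between neighbouring zinc fingers, where a probe holds them.
Klf2: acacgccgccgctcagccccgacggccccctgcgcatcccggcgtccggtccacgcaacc
Klf5: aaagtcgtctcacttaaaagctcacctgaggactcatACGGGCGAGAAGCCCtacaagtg
Klf9: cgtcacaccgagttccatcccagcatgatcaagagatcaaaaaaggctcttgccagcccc
Klf13: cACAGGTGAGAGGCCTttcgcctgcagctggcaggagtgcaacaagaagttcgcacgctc
The files place the Klf2 probe on mm7 at chr8:70842757-70842816 (plus strand), the other Klf2 probe at chr8:70844133-70844192. The Klf2 probe is 78.3% GC against 43.3% for its partner. The Klf9 probe lies at chr19:22862974-22863033 (plus strand) and its partner downstream at chr19:22863775-22863834. The Klf5 probe spans 9733 bases at chr14:93704580-93714312 and the Klf13 probe 46229 bases at chr7:59641560-59687788 (minus strand), so both join exons across an intron. The second Klf13 probe also joins exons, from chr7:59641606 to chr7:59674537, a span of 32932 bases. The Klf13 probes share a run of 10 bases, GGTGAGAGGC, which starts at base 5 of the brighter probe and at base 51 of the other. The brighter one therefore lies almost wholly after this run and the other almost wholly before it.

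Promoter sequence was given for 8 of the 10 genes. The 250 bases before the RefSeq start site (GRCm38.p6) are shown for Klf2 and Klf4, each with a probe that rose at 2 h, and for Klf11 and Klf15, which fell most. Capitals mark the core of the cAMP response element (TGACG on either strand) and, in Klf2, a match to the MEF2 site.
Klf2: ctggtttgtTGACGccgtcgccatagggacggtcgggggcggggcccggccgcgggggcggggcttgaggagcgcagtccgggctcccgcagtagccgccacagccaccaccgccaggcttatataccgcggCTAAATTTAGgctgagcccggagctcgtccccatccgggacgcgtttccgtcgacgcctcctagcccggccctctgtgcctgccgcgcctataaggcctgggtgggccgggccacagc
Klf4: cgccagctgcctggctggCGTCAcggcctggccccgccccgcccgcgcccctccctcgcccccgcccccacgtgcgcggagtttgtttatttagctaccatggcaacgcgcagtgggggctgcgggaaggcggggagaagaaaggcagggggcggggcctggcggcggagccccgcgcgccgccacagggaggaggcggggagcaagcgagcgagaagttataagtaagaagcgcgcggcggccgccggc
Klf11: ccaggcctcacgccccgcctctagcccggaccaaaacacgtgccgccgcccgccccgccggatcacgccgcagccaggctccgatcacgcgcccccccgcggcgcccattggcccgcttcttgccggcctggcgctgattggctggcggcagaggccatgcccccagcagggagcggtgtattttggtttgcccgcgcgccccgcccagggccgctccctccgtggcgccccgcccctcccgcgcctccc
Klf15: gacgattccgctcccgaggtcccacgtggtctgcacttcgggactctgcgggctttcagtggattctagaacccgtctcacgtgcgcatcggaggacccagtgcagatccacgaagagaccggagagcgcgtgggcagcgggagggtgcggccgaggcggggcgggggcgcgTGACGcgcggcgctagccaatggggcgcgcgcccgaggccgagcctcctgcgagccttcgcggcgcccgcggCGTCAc
These lie at chr8:72318812-72319061, chr4:55532476-55532725 (minus strand), chr12:24651121-24651370 and chr6:90462326-90462575, and the others are on the plus strand. The 8 promoters were GC-rich (59.6% to 78.4%, against a median of 52.4% over 32851 promoters). TGACG stood in 5 of 8 on either strand, against 17.8% of all promoters of this length. The GC box GGGCGG stood in 7 of 8, against 32.7%, and CCACCC in 3 of 8, against 28.1%. The MEF2 site of Klf2 starts 118 bases before the start site, and a match stood in 2.92% of all promoters. The full palindromic estrogen response element stood in 0 of 8 (0.0639% of all), and its core GGTCA in 2 of 8, Klf3 and Klf6 (35.2% of all). The glucocorticoid core TGTTCT stood in 0 of 8 (16.1% of all), and TATAAA in 0 of 8 (12.4% of all). These are matches of letters, not measured binding.

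At 2 h after E2 the family split. Klf4 and, on its brighter probe, Klf13 rose in all 3 strains, Klf11 and Klf15 fell in all 3, and Klf6 passed the test in none. The second Klf13 probe fell in all 3 strains. With each gene read by its brightest probe, B6 had 2 genes higher and 3 lower, while C3H and F1 each had 3 higher and 4 lower. Of all genes tested, 56.2% were called in B6, 60.3% in C3H and 59.2% in F1, so the share of Kruppel-like factors called was near the background. At 24 h the count was 2 higher and 6 lower in each strain, against 68.0%, 67.1% and 68.5% of all genes. Lower at 24 h were 6 of 10 genes, against 37.1% of all genes in B6, 40.1% in C3H and 36.7% in F1. Whether this share differs from the background was not tested, and the genes were chosen with earlier results of these data known. The median change of the 10 genes at 24 h was -0.69 in B6, -0.53 in C3H and -0.55 in F1, beside -0.05, -0.16 and -0.03 over all genes. Between 2 h and 24 h, B6 had 3 genes that rose and 5 that fell (68.6% of all genes called), C3H had 5 that rose and 4 that fell (70.6%), and F1 had 4 and 5 (68.4%). With each of the 18 probes read on its own, 3 were higher and 6 lower at 2 h in B6 (55.7% of all probes called), 4 and 8 for C3H (59.8%) and 4 and 8 for F1 (58.9%). At 24 h 2 probes were higher and 13 lower in B6 (68.2% of all probes), 2 and 12 for C3H (66.7%) and 2 and 13 for F1 (69.0%). The 6 lower genes at 24 h were Klf6, Klf9, Klf10, Klf11, Klf13 and Klf15 in each strain. Centring arrays on their median left the Klf13 falls at -0.12, -0.01 and -0.02 in B6, C3H and F1, none called.

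**Figure D1:**
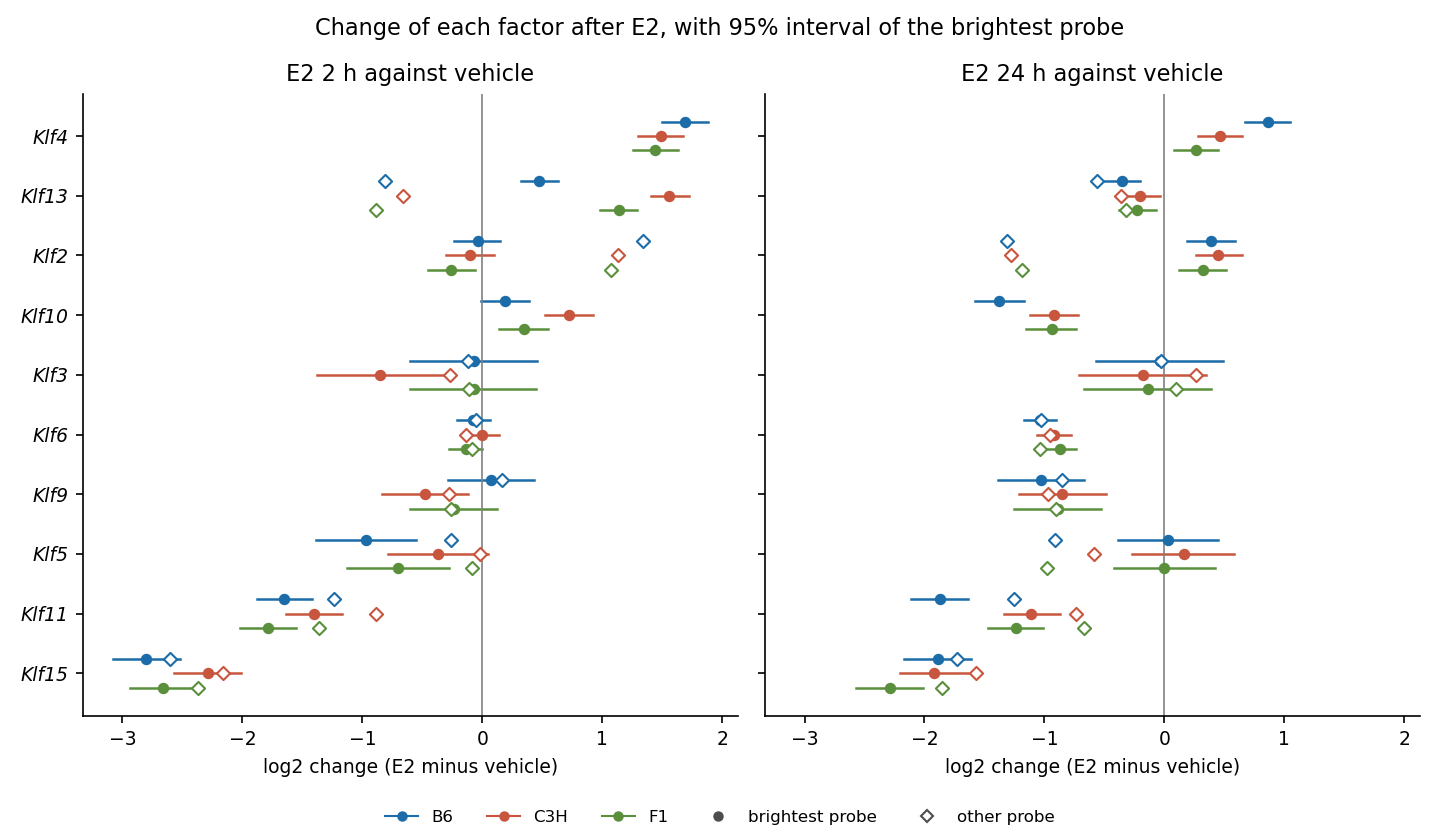
Log2 change of each Kruppel-like factor from vehicle at 2 h (left) and 24 h (right) in B6, C3H and F1. Filled circles with lines are the brightest probe and its 95% interval, open diamonds the second probe where there is one. Klf4 lies right of 0 and Klf11 and Klf15 left of 0 in both panels, while the 2 probes of Klf2 and, at 2 h, of Klf13 lie on opposite sides.

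Klf4, an activator known for restraining epithelial proliferation, had the steepest rise at 2 h among the brightest probes in B6 and F1. In vehicle its levels were 3.98, 3.98 and 4.09 in B6, 4.27, 4.26 and 4.17 for C3H, and 4.40, 4.31 and 4.10 for F1. At 2 h they were 5.64, 5.76 and 5.72 in B6, 5.76, 5.70 and 5.70 for C3H, and 5.89, 5.68 and 5.57 for F1, above every vehicle array. At 24 h they were 4.95, 4.86 and 4.82 in B6, 4.82, 4.50 and 4.76 for C3H, and 4.47, 4.65 and 4.49 for F1. The 2 h levels thus met in all strains near 5.7, and the 24 h levels lay between them and vehicle. The rise at 2 h was 3.23-fold in B6 (log2 1.69, SE 0.090, adjusted p = 1.73e-12), 2.80-fold in C3H (1.49) and 2.72-fold in F1 (1.44). At 24 h Klf4 was still higher by 0.86 in B6, 0.46 in C3H and 0.26 in F1 (adjusted p = 3.53e-08, 0.000131 and 0.013). The F1 value at 24 h lost its call without F1 vehicle replicate 3 (0.18) or F1 E2 24 h replicate 2 (0.21), and it was -0.05 after quantile normalization. With normexp background correction the 24 h values were 0.40 in C3H (adjusted p from limma 0.0979) and 0.43 in F1 (0.0508), neither called. Within the slide that held 3 B6 vehicle arrays and 1 B6 2 h array, the Klf4 change was 1.62.

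Klf2, an activator best known from endothelium, gave opposite pictures with its probes. On the brighter probe the levels in B6 were 5.15, 5.61 and 5.40 in vehicle, 5.32, 5.33 and 5.37 at 2 h, and 5.64, 5.75 and 5.93 at 24 h. On the other probe the B6 levels were 4.08, 3.47 and 3.49 in vehicle, 5.01, 5.08 and 4.97 at 2 h, and 2.33, 2.39 and 2.39 at 24 h. So the brighter probe lay within its vehicle levels at 2 h and was higher at 24 h, while the second probe rose at 2 h and then dropped below vehicle, with no overlap between groups. In C3H the second probe read 3.80, 3.63 and 4.02 in vehicle, 5.07, 4.95 and 4.83 at 2 h, and 2.62, 2.36 and 2.63 at 24 h. In F1 it read 4.34, 3.85 and 3.79, then 5.29, 4.94 and 4.96, then 2.92, 2.62 and 2.86, the same order of groups as in B6. The brighter probe changed at 24 h by 0.39 in B6, 0.45 in C3H and 0.32 in F1 (adjusted p = 0.00112, 0.000297 and 0.00582). The B6 value was 0.28 and not called with slide as a term (adjusted p = 0.202). The second probe changed at 2 h by 1.34, 1.13 and 1.07 and at 24 h by -1.31, -1.28 and -1.19 in B6, C3H and F1, the largest adjusted p being 5.8e-06. From 2 h to 24 h the second probe fell 6.28-fold in B6, 5.33-fold in C3H and 4.79-fold in F1. In F1 at 2 h the brighter probe was lower by a log2 change of -0.26 (adjusted p = 0.0249), and this call was lost without F1 vehicle replicate 2 (-0.24), F1 vehicle replicate 3 (-0.24) or F1 E2 2 h replicate 3 (-0.20), and with slide as a term (-0.29, adjusted p = 0.0922). The brighter probe had processed intensities from 40610 to 98110, none marked as saturated, and after quantile normalization its 24 h change was -0.13 in B6, 0.15 in C3H and -0.03 in F1, none called. Endothelial markers, 6 in all, fell at 24 h in 6 (B6), 3 (C3H) and 5 (F1), with mean levels of -0.01 to 0.04 on the B6 arrays against 0.49 to 0.59 in vehicle. At 2 h they were lower in 3, 2 and 2 of 6, while the second probe of Klf2 rose. Their part in the fall of that probe at 24 h was not tested.

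Klf5, an activator of proliferation in epithelia, also differed by probe. The brighter probe read 0.74, 0.86 and 1.09 in B6 vehicle, -0.48, -0.03 and 0.28 at 2 h, and 0.96, 0.98 and 0.84 at 24 h. It therefore dipped at 2 h, below every B6 vehicle array, and was back at 24 h. In C3H it read 0.42, 0.49 and 0.28 in vehicle and -0.31, 0.32 and 0.07 at 2 h, which overlap. In F1 it read 0.57, 0.97 and 0.81 in vehicle and -0.27, 0.50 and 0.01 at 2 h, which do not. The 2 h change was -0.97 in B6 (SE 0.20, adjusted p = 0.000329), -0.70 in F1 (adjusted p = 0.00499) and -0.37 in C3H (95% interval -0.79 to 0.05, adjusted p = 0.121). The second probe, from a different transcript record and with a mean processed intensity of 89.81 against 1888, was not called at 2 h (-0.26, -0.02 and -0.09) and was lower at 24 h in B6 (-0.91) and F1 (-0.98), with -0.59 in C3H (adjusted p = 0.0567). The second Klf5 probe lies at chr14:93706061-93706120, inside the span that the brighter probe joins across, so it need not read the same transcript. The dip at 2 h thus rests on 1 probe, and the second is not a repeat reading of it.

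Klf6, an activator often induced by injury, moved late. Both probes were near vehicle at 2 h in all strains, with changes of -0.08 (B6), 0.00 (C3H) and -0.14 (F1) on the brighter probe (95% intervals -0.21 to 0.06, -0.14 to 0.14 and -0.28 to 0.00). At 24 h the levels were 2.68, 2.74 and 2.75 in B6, 2.93, 2.83 and 2.92 for C3H, and 2.94, 3.04 and 2.88 for F1, against 3.68 to 3.89 over the 9 vehicle arrays. No 24 h array reached any vehicle array. The fall was 2.05-fold in B6, 1.89-fold in C3H and 1.83-fold in F1 (adjusted p at most 3.45e-10), and the second probe gave 2.05-, 1.93- and 2.05-fold. After quantile normalization Klf6 was also lower at 2 h in B6 (-0.17) and F1 (-0.26), and the F1 value of -0.18 was called without F1 vehicle replicate 3 or without F1 E2 2 h replicate 1.

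Klf3, a repressor that binds CtBP, was the least steady member. Its brighter probe read 0.08, 0.53 and 0.98 in B6 vehicle and 0.69, 1.19 and 0.47 in C3H vehicle. Only C3H at 2 h, with levels of 0.26, -0.17 and -0.30, was called against vehicle (-0.85, SE 0.25, adjusted p = 0.00652), and there the second probe gave -0.27 (adjusted p = 0.058). In B6 and F1 the Klf3 changes at both times ran from -0.14 to -0.04, with intervals as wide as -0.67 to 0.39. Changes within these intervals cannot be told from no change in Klf3 at this spread.

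**Figure D2:**
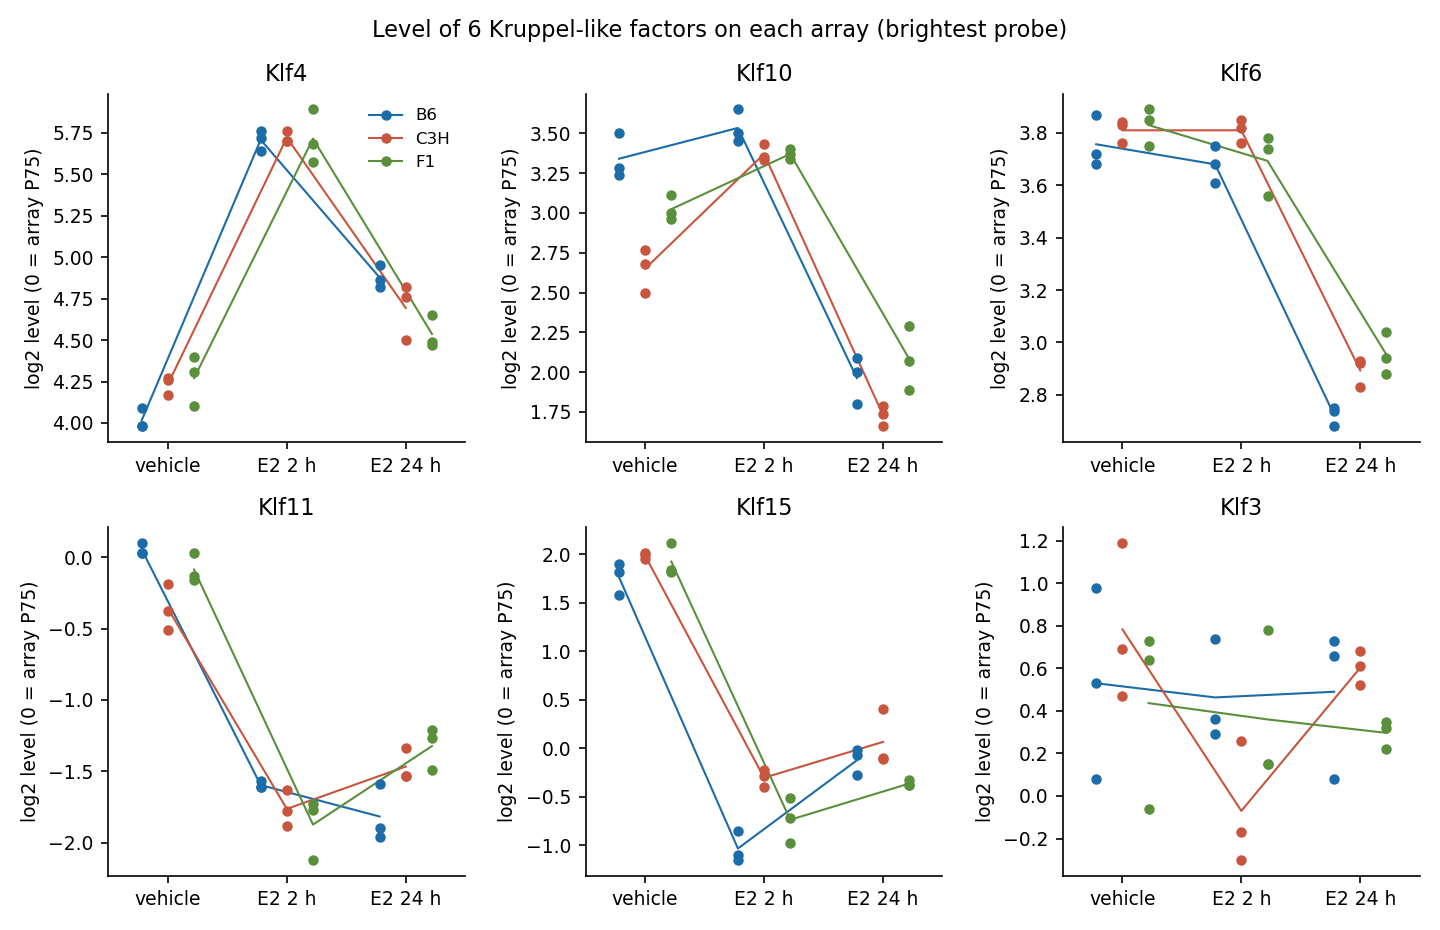
Log2 level on each array, brightest probe, for 6 Kruppel-like factors in vehicle, E2 2 h and E2 24 h, with lines through the mean of the 3 arrays of each strain. Level 0 is the 75th percentile of the array (P75), and the y axes differ between panels. Klf11 and Klf15 drop at 2 h and stay below vehicle, Klf6 and Klf10 drop at 24 h, and Klf4 peaks at 2 h.

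Klf15, known as a target of glucocorticoids and as a regulator of glucose and amino acid metabolism, had the largest change of the family. Its vehicle levels were 1.82, 1.90 and 1.58 in B6, 1.99, 2.02 and 1.95 for C3H, and 2.12, 1.84 and 1.82 for F1. At 2 h they were -0.85, -1.15 and -1.10 in B6, -0.29, -0.40 and -0.22 for C3H, and -0.51, -0.98 and -0.72 for F1. All 9 arrays at 2 h lay more than 1 log2 unit below all 9 vehicle arrays. The fall was 6.98-fold in B6 (log2 -2.80, SE 0.13, adjusted p = 3.56e-13), 4.88-fold in C3H (-2.29) and 6.33-fold in F1 (-2.66), and the second probe gave 6.07-, 4.45- and 5.18-fold. At 24 h Klf15 had partly returned, to -0.28, -0.07 and -0.02 in B6, 0.41, -0.11 and -0.10 for C3H, and -0.38, -0.33 and -0.38 for F1. These were still 3.72-, 3.79- and 4.89-fold below vehicle. From 2 h to 24 h the return was 0.91 in B6 (adjusted p = 4.11e-06), 0.36 for C3H (0.0209) and 0.37 for F1 (0.0193). The C3H return was 0.20 and not called without the 3 arrays that stand apart (adjusted p = 0.224). The C3H value was 0.19 without C3H E2 24 h replicate 1 and 0.32 without C3H E2 2 h replicate 2, and the F1 value 0.25 without F1 E2 2 h replicate 2 and 0.35 without F1 E2 24 h replicate 2, none of them called.

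Liver and fat express Klf15, and markers of both moved between groups. The mean level of 3 liver markers fell from -2.40 to -0.37 over the B6 vehicle arrays to -3.93 to -2.26 at 2 h and -5.31 to -4.39 at 24 h. Liver markers called lower were 3, 2 and 2 of 3 at 2 h (median change -1.44, -1.39 and -1.44 in B6, C3H and F1) and 3 of 3 at 24 h in each strain (-3.40, -2.68 and -2.21). Without the 3 arrays that stand apart, 0 of 3 were called in B6 at 2 h, where the vehicle arrays left had mean levels of -2.40 and -1.74 and the 2 h arrays -2.26, -2.72 and -3.93. The 4 fat cell markers had a mean level of 2.29 in B6 vehicle, -1.09 in C3H vehicle and 2.04 in F1 vehicle, while Klf15 stood at 1.77, 1.99 and 1.92 in the same groups. The C3H vehicle arrays were spread for these markers, at -2.33, -2.44 and 1.49, against 1.56 to 2.77 in B6 and 1.18 to 3.33 in F1. At 2 h no fat cell marker was called in any strain, their median change being -1.51 (B6), -1.17 (C3H) and -0.64 (F1), and the B6 arrays at 2 h (0.59 to 1.17) all lay below those of B6 vehicle. At 24 h 3 of 4 were called lower in F1 and 0 in the other strains, with medians of -2.42 in F1, -1.72 in B6 and 0.52 in C3H. Beyond these values, their part in the Klf15 result was not tested.

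Klf11, a TGF-beta inducible relative of Klf10 that recruits Sin3, fell as early as Klf15 and did not return in B6. Its levels were 0.03, 0.10 and 0.03 in B6 vehicle, -1.57, -1.61 and -1.61 at 2 h, and -1.59, -1.90 and -1.96 at 24 h. In C3H they were -0.51, -0.19 and -0.38 in vehicle, -1.78, -1.88 and -1.63 at 2 h, and -1.34, -1.53 and -1.53 at 24 h. In F1 they were -0.16, -0.13 and 0.03, then -1.77, -2.12 and -1.73, then -1.49, -1.21 and -1.27. No treated array overlapped a vehicle array of its strain. The 2 h fall was 3.14-fold in B6, 2.64-fold in C3H and 3.45-fold in F1, and the 24 h fall 3.66-, 2.15- and 2.36-fold, with adjusted p at most 3.73e-08. The second probe fell in the same 6 comparisons, by 1.59- to 2.57-fold. From 2 h to 24 h Klf11 came back by 0.55 in F1 (adjusted p = 0.000218), and by 0.30 in C3H, a call lost with any of 3 of 6 arrays left out (0.23 to 0.29) and without the 3 arrays that stand apart (0.22, adjusted p = 0.17). In B6 vehicle Klf11 was also higher than in C3H vehicle (C3H minus B6 -0.41, adjusted p = 0.0093; -0.56 on the second probe). That strain value was -0.34 (adjusted p = 0.0617) without C3H vehicle replicate 1 and -0.16 (0.79) with slide as a term in the fit.

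Klf10, first described as an early gene of TGF-beta and of estrogen, did not pass the test at 2 h in B6 and fell everywhere at 24 h. In vehicle its levels were 3.50, 3.28 and 3.24 in B6, 2.5, 2.77 and 2.68 for C3H, and 3.11, 2.96 and 3.00 for F1. At 2 h they were 3.45, 3.65 and 3.50, then 3.33, 3.43 and 3.35, then 3.37, 3.34 and 3.40 in the same order of strains. The strains thus stood apart in vehicle (B6 above F1 above C3H) and close together at 2 h. The 2 h change was 0.19 in B6 (95% interval -0.01 to 0.39, adjusted p = 0.104), 0.72 in C3H (adjusted p = 1.93e-06) and 0.35 in F1 (adjusted p = 0.00418). The B6 value was 0.27 and called without B6 vehicle replicate 1 (adjusted p = 0.0358) and without the 3 arrays that stand apart (adjusted p = 0.0452). The F1 value was 0.37 and not called with slide as a term (adjusted p = 0.0522). At 24 h the levels were 2.09, 1.80 and 2.00 in B6, 1.74, 1.66 and 1.79 for C3H, and 1.89, 2.29 and 2.07 for F1, below every vehicle and 2 h array. This is 2.60-, 1.89- and 1.92-fold below vehicle.

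Klf13, which also recruits Sin3, had the largest difference in response between strains among the 10 genes, on 1 of its probes. The brighter probe read 1.32, 1.27 and 1.34 in B6 vehicle, 1.28, 1.35 and 1.28 in C3H vehicle, and 1.19, 1.33 and 1.34 in F1 vehicle. At 2 h it read 1.76, 1.76 and 1.82 in B6, 2.91, 2.85 and 2.84 for C3H, and 2.52, 2.42 and 2.33 for F1. All vehicle levels lay between 1.19 and 1.35, and the strains did not overlap at 2 h, with F1 between its parents. The rise was 1.39-fold in B6 (0.47, SE 0.074, adjusted p = 1.52e-05), 2.95-fold in C3H (1.56) and 2.20-fold in F1 (1.14). At 24 h it was slightly below vehicle, by -0.35, -0.20 and -0.23, and after centring arrays on their median these falls were -0.12, -0.01 and -0.02, none called. Without the 3 arrays that stand apart the C3H fall was not called either (-0.20, adjusted p = 0.0532). The C3H fall also lost its call without C3H vehicle replicate 2 (-0.17) or C3H E2 24 h replicate 2 or 3 (-0.20 each), and the F1 fall without F1 E2 24 h replicate 2 (-0.14). The second probe, with a mean processed intensity of 117 against 4347, went the other way at 2 h: its levels in B6 were -2.97, -3.11 and -2.94 in vehicle and -3.74, -3.81 and -3.90 at 2 h. Its 2 h changes were -0.81, -0.66 and -0.89 in B6, C3H and F1 (adjusted p at most 0.000382). The probes cover sequence on different sides of their shared run and come from different transcript records in the files, so they are given side by side and not as 1 value for the gene.

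Klf9, the partner of the progesterone receptor, fell at 24 h in every strain on both probes. The brighter probe read 2.36, 2.51 and 2.49 in B6 vehicle and 1.43, 1.29 and 1.56 at 24 h. In C3H it read 1.08, 1.55 and 0.70 in vehicle, 0.85, 0.54 and 0.51 at 2 h, and 0.27, 0.28 and 0.22 at 24 h. In F1 it read 1.86, 2.13 and 2.32 in vehicle and 1.52, 0.94 and 1.2 at 24 h. The 24 h falls were 2.04-, 1.81- and 1.85-fold (adjusted p at most 0.000211), and the second probe gave 1.80-, 1.96- and 1.87-fold. With slide as a term the B6 fall was -0.76 (adjusted p = 0.0635). At 2 h the brighter probe was called only in C3H (-0.48, adjusted p = 0.022), where the groups overlap and the call is lost without C3H vehicle replicate 2 (-0.26) or C3H E2 2 h replicate 2 (-0.43) or 3 (-0.41). The second probe was called at 2 h in C3H (-0.28, adjusted p = 0.0329) and F1 (-0.26, adjusted p = 0.0475).

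The strains also differed for Klf9 before treatment, on the brighter probe. C3H vehicle was 2.54-fold below B6 vehicle (-1.34, SE 0.17, adjusted p = 4.01e-06), and F1 was above C3H by 0.99 (adjusted p = 0.000504). The second probe ran the other way for C3H and B6 (1.53, 1.71 and 1.32 against 1.04, 1.29 and 1.17, a difference of 0.35, adjusted p = 0.0252) and gave -0.06 for F1 minus C3H. So the lower Klf9 of C3H is a result of the probe printed above and not of its partner. With slide as a term the brighter probe gave -1.21 (adjusted p = 0.085).

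**Figure D3:**
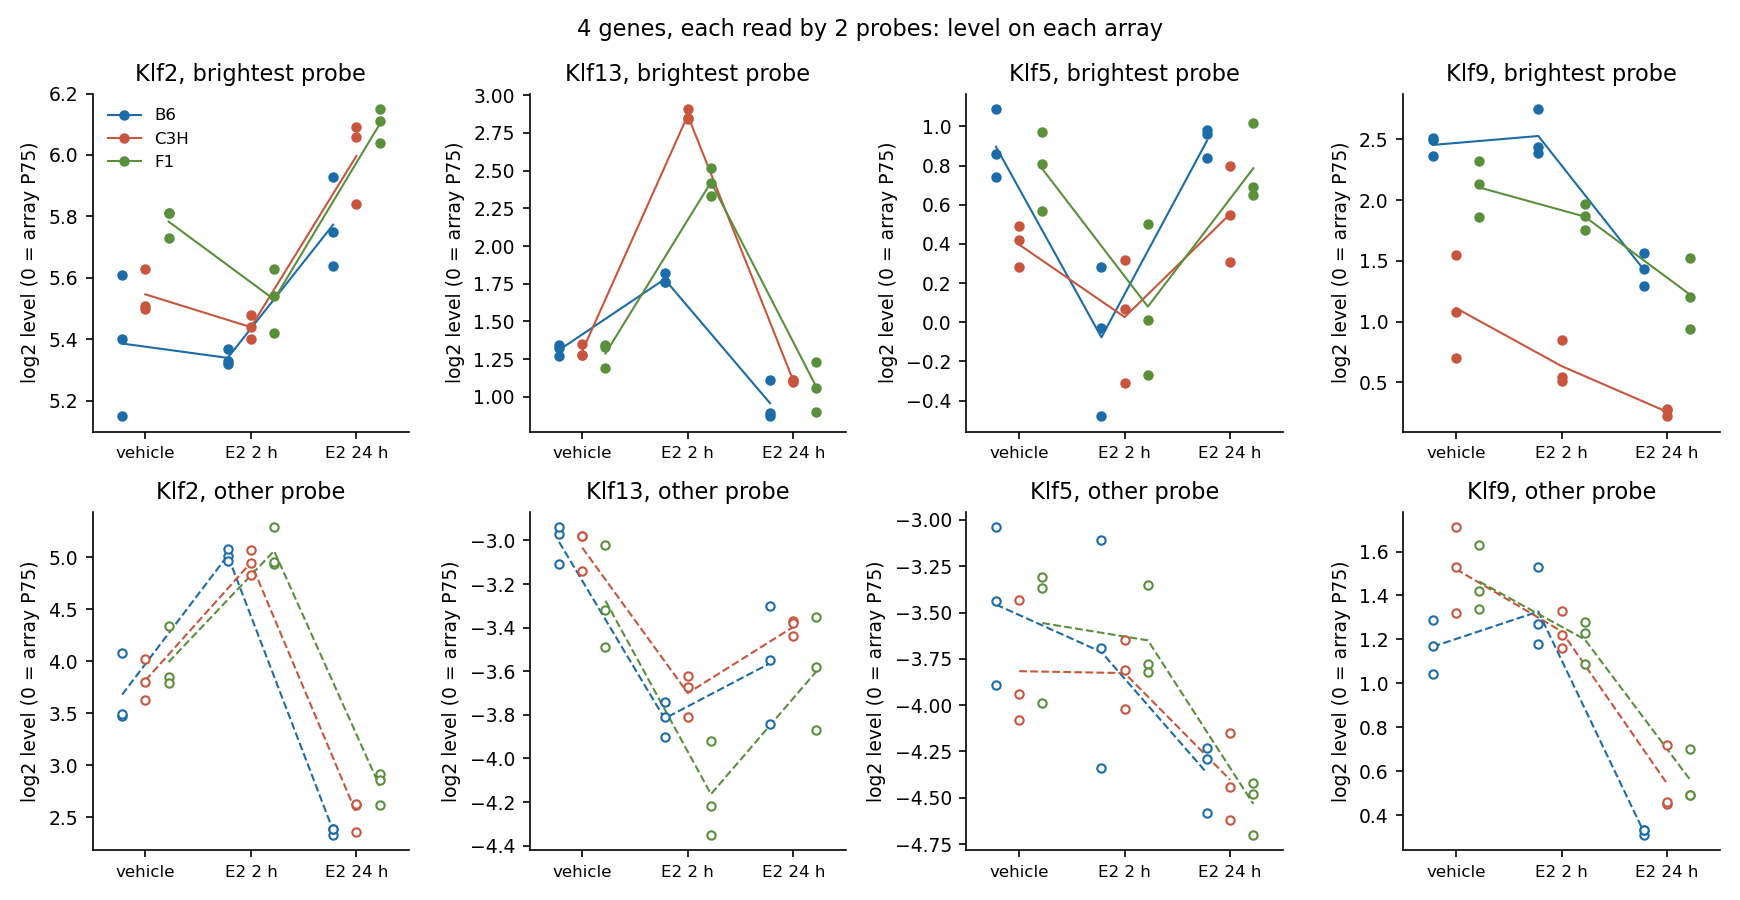
Log2 level on each array for 4 genes whose probes differed, in the response to E2 (Klf2, Klf13 and Klf5) or in strain levels (Klf9). The brightest probe is above (filled) and the second probe below (open), with lines through the means of the 3 arrays of a strain. Level 0 is the array's 75th percentile (P75) and y axes differ. Klf2 and Klf13 turn opposite ways at 2 h or 24 h, and the low C3H levels of Klf9 appear in the upper panel only.

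In vehicle the number of Kruppel-like factors that differed between strains was 0 higher and 3 lower (Klf9, Klf10, Klf11) in C3H against B6, where 24.1% of all genes were called, 1 higher (Klf2, 0.40) and 1 lower (Klf10, -0.32) in F1 against B6 (12.5% of all genes), and 2 higher (Klf9, Klf10) and 0 lower in F1 against C3H (14.3%). With 10 genes these counts are near the background. Klf2 was also called in F1 against C3H (0.24, adjusted p = 0.0448) without the 3 arrays that stand apart. Both F1 against B6 calls were lost without B6 vehicle replicate 1 (0.28 and -0.24). The Klf10 call was also lost without B6 vehicle replicate 2 (-0.35), F1 vehicle replicate 2 (-0.28) or F1 vehicle replicate 3 (-0.31). Klf10 in C3H was 1.61-fold below B6 (-0.69, SE 0.097, adjusted p = 1.37e-05), without overlap, and -0.87 (adjusted p = 0.042) with slide as a term. The F1 to C3H difference of Klf10 (0.37, adjusted p = 0.0128) lost its call without C3H vehicle replicate 1 (0.30) or F1 vehicle replicate 1 (0.33).

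Whether strains respond differently was tested as the difference of their E2 changes. At 2 h, 2 of 10 Kruppel-like factors were called between C3H and B6, both higher, against 2.16% of all genes, and 1 between F1 and B6, against 0.599%. At 24 h the counts were 3 (2 higher, 1 lower; 18.7% of all genes) and 2 (1 higher, 1 lower; 1.90%). Between F1 and C3H 0 were called by limma at 2 h (0.229% of all genes) or 24 h (3.70%), which does not show that their responses were equal. The Klf13 differences at 2 h were 1.09 for C3H minus B6 (SE 0.11, 95% interval 0.87 to 1.31, adjusted p = 2.96e-06) and 0.67 for F1 minus B6 (adjusted p = 0.00272), and they kept their call with each of the 12 arrays behind them left out in turn. On the second Klf13 probe the same differences were 0.14 (adjusted p = 0.783) and -0.08 (0.933). The F1 minus B6 difference of Klf13 was also not called with normexp background correction (0.84, adjusted p = 0.104) or with the mean of its probes (0.29, adjusted p = 0.452).

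A further 6 differences in response were called. The 24 h fall of Klf11 was smaller in C3H than in B6 by 0.77 (SE 0.16, adjusted p = 0.00258), a call kept with each of 12 arrays left out and lost with normexp (0.80, adjusted p = 0.197) or on the second probe (0.52, adjusted p = 0.0618), and smaller in F1 by 0.63 (0.0441), a call lost with any of 9 of 12 arrays left out. The 24 h rise of Klf4 was smaller than in B6 by a log2 difference of -0.40 in C3H (0.0344, lost with 7 of 12 arrays left out 1 at a time) and -0.59 in F1 (0.02, lost with 3 of 12). Both Klf4 calls were also lost with normexp (-0.56 and -0.52), quantile normalization (-0.23 and -0.50), no scaling or only the groups compared. For Klf10, C3H minus B6 was 0.53 at 2 h (0.0475, lost with 9 of 12) and 0.46 at 24 h (0.025, lost with 4 of 12). Both Klf10 calls were also lost with normexp (0.73 and 0.30), no scaling or only the groups compared. In C3H the arrays of vehicle and of E2 lie on different slides, so slide and treatment cannot be told apart in that strain, nor for F1 at 24 h. With slide as a random block the correlation within slides was 0.00701. That fit takes out the group means and slides largely follow groups, so this value cannot show that slide has no effect. A slide held the 3 F1 arrays at 2 h and F1 vehicle replicate 3, and within it Klf13 changed by 1.08, against 0.45 within the B6 slide. With slide as a term the F1 minus B6 difference of Klf13 was 0.63 (adjusted p = 0.089). Without the 3 arrays that stand apart, the Klf13 differences were 1.06 and 0.66 and still called, while both Klf10 differences and the F1 difference of Klf11 lost their call.

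**Figure D4:**
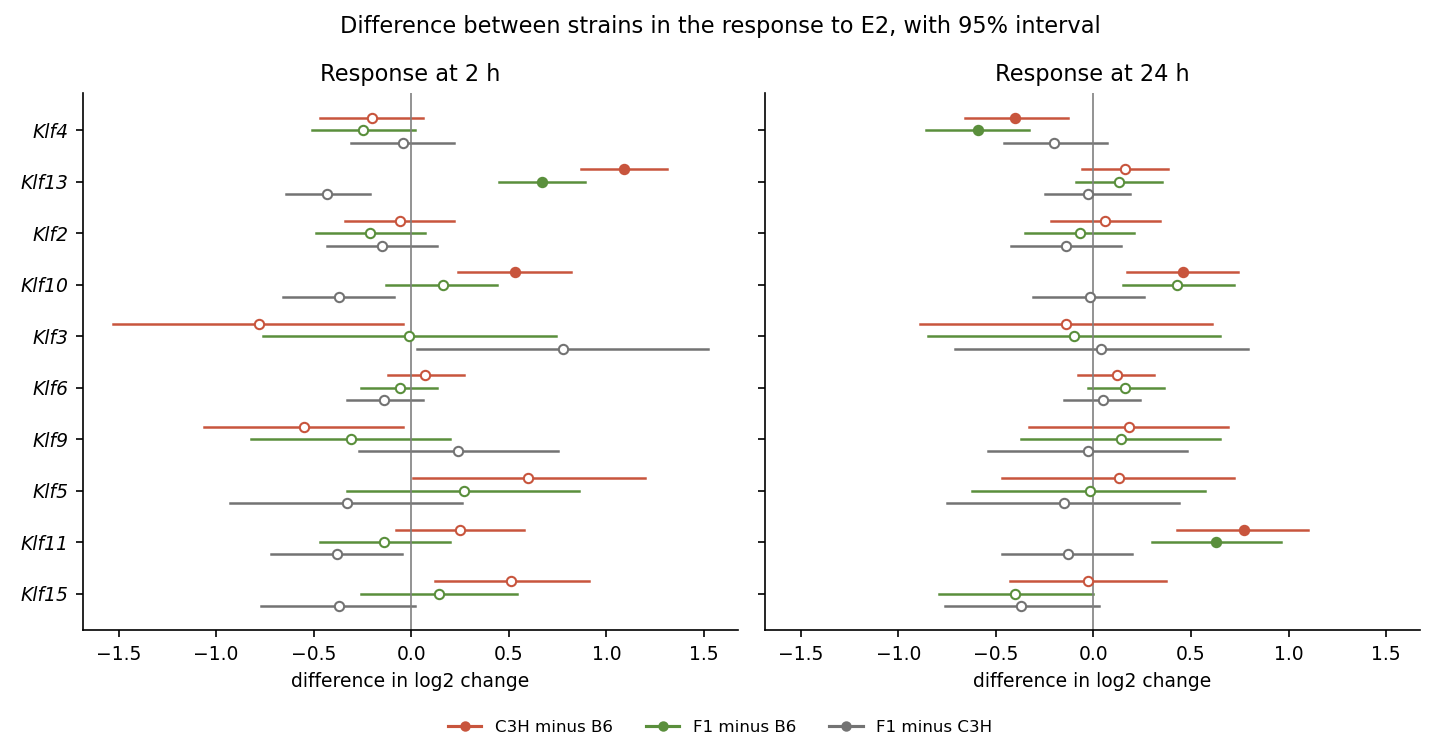
Difference between strains in the log2 change after E2, brightest probe, at 2 h (left) and 24 h (right), with 95% intervals. Filled points passed the test at an adjusted p under 0.05. Klf13 at 2 h lies farthest from 0, at 1.09 for C3H minus B6 and 0.67 for F1 minus B6.

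The remaining Kruppel-like genes and lists of related genes were read for context, beside 56.2%, 60.3% and 59.2% of all genes called at 2 h and 68.0%, 67.1% and 68.5% at 24 h in B6, C3H and F1. Of 7 listed, 6 were measured, and at 2 h 1 rose and 4 fell in each strain. Klf16, a Sin3-binding repressor, rose by 1.17, 1.05 and 1.31 in B6, C3H and F1. Klf1, the erythroid factor, fell by a log2 change of -1.11, -1.18 and -1.51, while the erythroid markers Hba-a1 (0.82, 0.60 and 0.62) and Alas2 (0.58, 0.47 and 0.59) rose at 2 h. Without the 3 arrays that stand apart, 1 of these 2 markers was called in B6 and in C3H. Klf12 fell by a log2 change of -0.54, -0.71 and -0.76. The list's median change at 2 h was -0.38, -0.50 and -0.47, beside -0.08, -0.10 and -0.10 over all genes. Of 7 measured SP genes, the closest relatives of the family, 6, 6 and 5 were lower at 24 h (37.1%, 40.1% and 36.7% of all genes were lower) and 0 higher (1 in F1 without the 3 arrays), among them Sp4 (-1.86, -1.80, -2.27) and Sp1 (-0.67, -0.68, -0.73), with medians of -0.59, -0.67 and -0.44.

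Of 16 cofactors and regulators of these proteins, 4, 5 and 3 rose and 6 fell in each strain at 2 h, with medians of -0.04, -0.14 and 0.05, a share called near that of all genes. Without the 3 arrays that stand apart, 2 in B6 and 4 in C3H rose. Mef2a, which codes for a factor that acts on the Klf2 promoter, rose at 2 h by 1.09, 1.02 and 0.84 in B6, C3H and F1, whereas Mef2c fell (-0.65, -1.0, -0.75) and Mef2d fell (-0.36, -0.51, -0.61). Of 12 immediate TGF-beta targets, 9, 8 and 8 rose at 2 h and 3, 4 and 3 fell, with medians of 1.14, 0.90 and 0.91. Pmepa1 rose by 2.36, 2.45 and 2.57 and Junb by 2.18, 2.65 and 2.53, while Id2 fell (-1.46, -1.70, -1.91). At 24 h 1 of the 12 rose in each strain and 6, 7 and 7 fell. Klf10 and Klf11, both known as TGF-beta inducible, gave 0.19, 0.72 and 0.35 and -1.65, -1.40 and -1.79 at 2 h in the same strains.

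Of 9 measured glucocorticoid- and progestin-responsive genes, 6 rose at 2 h in each strain, and 2, 3 and 3 fell. Errfi1 rose by 3.57, 3.52 and 3.50, and Sgk1, a kinase induced by glucocorticoids, by 2.11, 2.56 and 2.36. Tsc22d3, a classic glucocorticoid target, fell by a log2 change of -1.55, -1.45 and -1.5, and Nr3c1, which codes for the glucocorticoid receptor, by -0.65, -0.83 and -0.80. Klf9 and Klf15 are glucocorticoid targets too, and gave 0.07, -0.48 and -0.24 and -2.80, -2.29 and -2.66. Among 15 known targets of Kruppel-like factors, 5, 4 and 5 rose and 4, 6 and 5 fell at 2 h, with medians of -0.13, -0.16 and -0.18, again a share near that of all genes (5 rose in C3H without the 3 arrays). Cdkn1a, the cell cycle inhibitor activated by Klf4 and Klf6, rose by 3.08, 3.67 and 3.36, and Nos3, an endothelial target of Klf2, by 1.17, 1.55 and 1.46. Thbd, another endothelial target of Klf2, fell by a log2 change of -0.55, -0.76 and -0.59, and Slc2a4, a target of Klf15, by -0.92, -1.01 and -0.96.

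For each Kruppel-like factor the genes with the most similar course were sought by Pearson correlation over the 9 group means, among 15660 candidates that changed in at least 1 comparison with vehicle. Each factor was read by its brightest probe, so for Klf2, Klf5, Klf9 and Klf13 the nearest genes are those of 1 probe. The group means share treatment, strain and arrays, so r is a description. Klf15 was nearest to Prickle2 (r = 0.993) and Ulk3 (0.992), and Klf11 to Txnip (0.995) and 5033421B08Rik (0.991). Txnip, which codes for a thioredoxin inhibitor, changed at 2 h by -2.69, -2.04 and -2.49 in B6, C3H and F1. Klf6 was nearest to Cbx7 (0.997) and Mynn (0.996), and Klf10 to Nlrp6 (0.994) and Mast4 (0.990). Klf4 was nearest to Mavs (0.998) and Txnl4a (0.997), and the brighter probe of Klf13 to Mob3c (0.989) and Mgll (0.984). Mgll, the monoacylglycerol lipase gene, rose at 2 h by 0.76, 1.23 and 0.88 in B6, C3H and F1. Klf9 was nearest to Duxbl1 (0.988) and Trim56 (0.982), Klf5 to Ppp1r9b (0.978) and Creb3l4 (0.972), Klf2 to Cox17 (0.975) and Pip4k2c (0.974), and Klf3 to Fam168a (0.972) and Irf2bpl (0.933).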

How the data were processed

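RNA of 27 uterus samples was hybridised to one-colour Agilent arrays. The deposited scanner files hold processed intensity values made with Feature Extraction 9.5, per the submitters' processing notes (9.5.3.1 per the file headers), with spatial and multiplicative detrending switched on per the file headers. The deposited value table held the same processed intensity values on 27 of 27 arrays. From these, control spots (1639 of 45018) and outlier spots were left out, and the processed signal was averaged over the spots of a probe. The averages were then put on the log2 scale, and the 75th percentile over the probes of the array was subtracted. Of 41174 probes, 32901 were kept as well above background on every array of at least 1 group. A gene was read by its brightest probe, which gave 21866 genes. Names came from accessions for 22951 probes, current symbols for 6659 and synonyms for 3109, and 8455 kept the file's name. Probe positions are those of the file (mm7). Promoters are RefSeq's (GRCm38.p6), and positions of these builds were not mixed.

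A single limma fit over all 9 groups gave every change, with Benjamini-Hochberg adjustment over all genes of a comparison and a threshold of 0.05. Fits were run in R 4.3.3 with limma 3.58.1, and tables and plots were made in Python 3.11.15 with pandas 2.3.3, numpy 2.4.6 and matplotlib 3.10.9. The fit was tested on simulated data. The number of arrays limits the precision.

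Replicate numbers do not pair samples: deviations of same-numbered arrays correlated at -0.257 to 0.344 (median 0.0122). The genes and lists were chosen with earlier results of these data known, so they are not independent evidence of any pattern. All 10 genes are named with every probe. The text also names the 2 most similar genes by Pearson r, and draws its named list genes from up to 3 per list and time that passed in all 3 strains in the same direction with the largest mean change. The alternatives tried were normexp background correction (offset 50), quantile normalization, median centring, no scaling, no filter on dim probes, other readings of the probes, slide or slide serial range as a term, slide as a random block, a replicate block, only the groups compared, and each array left out.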

Additional observations from a re-analysis of the deposited data

Results flagged for a closer look

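In the main fit, on the brightest probe of each gene, the response to E2 differed between strains in 8 cases, by a test of the difference itself. For Klf13 at 2 h, C3H minus B6 was 1.09 (adjusted p from limma 2.96e-06) and F1 minus B6 was 0.67 (adjusted p = 0.00272). For Klf10, C3H minus B6 was 0.53 at 2 h (adjusted p = 0.0475) and 0.46 at 24 h (adjusted p = 0.025). For Klf11 at 24 h, C3H minus B6 was 0.77 (adjusted p = 0.00258) and F1 minus B6 was 0.63 (adjusted p = 0.0441). For Klf4 at 24 h, C3H minus B6 was -0.40 (adjusted p = 0.0344) and F1 minus B6 was -0.59 (adjusted p = 0.02). On the second Klf13 probe these differences were 0.14 and -0.08, and on the second Klf11 probe 0.52 and 0.59, none called. With normexp only the Klf13 difference of C3H minus B6 kept its call. With each array left out in turn, only the Klf13 differences and the Klf11 difference of C3H minus B6 always kept theirs. In C3H all vehicle arrays lie on slides without E2 arrays of that strain, so slide and treatment cannot be told apart there.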

How the results depend on the processing

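Of 2374 alternative values, 2222 were called in neither the main fit nor the alternative, or in both with the same direction. Another 98 lost a call, 15 gained one, and 39 reversed in sign with a call in either fit. For values called in neither fit the direction was not compared. Leaving out arrays, either 1 at a time or all those that stand apart together, gave 1537 of 1620 unchanged in this sense and 0 reversed. The cause of the changes below was not tested.

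Counts are of the 10 genes called. The share of all genes called under each alternative, here and below, is not given. A changed count therefore cannot be read as particular to the Kruppel-like factors. With every probe required to agree, 3 were called in B6 at 2 h, 4 in F1 at 2 h, 5 from 2 h to 24 h in B6 and in C3H, 1 in vehicle for F1 against B6 and for F1 against C3H, 1 for the F1 minus B6 response at 24 h, and 0 for the C3H minus B6 and F1 minus B6 responses at 2 h. With normexp, 5 were called in C3H at 24 h and from 2 h to 24 h, 0 and 1 in vehicle for F1 against B6 and C3H, 1 and 0 for the C3H minus B6 response at 2 h and 24 h, and 0 for F1 minus B6 at both times. With slide as a term, 1 was called for C3H against B6 in vehicle and 0 for the F1 minus B6 response at 2 h. The C3H minus B6 response at 2 h had 1 call with no scaling, no filter, only the groups compared, slide as a random block, slide serial range as a term, the replicate block, or without the 3 arrays that stand apart (chosen after seeing the data). At 24 h it had 1 with no scaling or only the groups compared. The F1 minus B6 response at 24 h had 1 call with no filter, quantile normalization, median centring, the mean of probes, the replicate block or without the 3 arrays, and 0 with no scaling, only the groups compared or slide serial range. The mean of probes gave 0 for F1 minus B6 at 2 h. In vehicle, F1 against B6 had 1 call with no scaling and 0 with only the groups compared or without the 3 arrays, and F1 against C3H had 1 with no scaling.

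With 1 array left out, counts ran from 5 to 6 (B6 2 h), 8 to 8 (B6 24 h), 6 to 7 (C3H 2 h), 7 to 8 (C3H 24 h), 6 to 8 (F1 2 h) and 6 to 8 (F1 24 h). From 2 h to 24 h they ran from 8 to 9 (B6), 6 to 8 (C3H) and 8 to 9 (F1). In vehicle they ran from 2 to 4 (C3H against B6), 0 to 2 (F1 against B6) and 1 to 2 (F1 against C3H). For responses they ran from 1 to 2 and 1 to 3 (C3H minus B6 at 2 h and 24 h) and 0 to 2 (F1 minus B6 at 24 h).

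The replicate block also gave calls for Klf5 in C3H at 2 h (-0.37, adjusted p from limma 0.0406) and in C3H against B6 vehicle (-0.50, 0.0198). It removed those of Klf10 (C3H minus B6 at 2 h, 0.53, 0.0666) and Klf11 (F1 minus B6 at 24 h, 0.63, 0.0542), and changed no other call.

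Reversals lay with the scaling or the probe. Quantile normalization gave Klf2 -0.13 in B6 at 24 h, -0.04 in B6 from 2 h to 24 h and -0.03 in F1 at 24 h, and Klf4 -0.05 in F1 at 24 h. The mean of both Klf2 probes gave 0.65, -0.46 and -1.11 in B6 (2 h, 24 h, and 24 h against 2 h), 0.52, -0.41 and -0.93 for C3H, and 0.41, -0.44 and -0.84 for F1. The second Klf2 probe gave 1.34, -1.31 and -2.65 in B6, 1.13, -1.28 and -2.41 for C3H, and 1.07, -1.19 and -2.26 for F1. The mean of probes gave Klf13 -0.17 in B6 at 2 h, and Klf5 -0.02 in C3H and -0.09 in F1 from 2 h to 24 h. The second Klf13 probe gave -0.81, -0.66 and -0.89 at 2 h, 0.25, 0.30 and 0.57 from 2 h to 24 h, and -0.08 for F1 minus B6 at 2 h. The second Klf5 probe gave -0.91 and -0.98 at 24 h in B6 and F1, and -0.65, -0.57 and -0.89 from 2 h to 24 h. The second Klf9 probe gave 0.35 for C3H against B6 and -0.06 for F1 against C3H in vehicle.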
